A study of Mus musculus with 22 samples.

Results

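The genes described here are 9 that act in the oocyte, the early embryo or the germ line and that embryonic stem cells also express: Dppa2, Dppa3, Dppa4, Dppa5a, Tcl1, Zfp57, Trim71, Khdc3 and Nlrp4f. They were chosen by symbol, and each of the 9 symbols had 1 row among the 18487 genes of the table. The libraries were made from poly(A)-selected RNA of E14, a mouse embryonic stem cell line. Each of 10 groups was labelled with a compound, namely Bromosporine, Chaetocin, CPTH2, DZNep, Garcinol, IOX1, MS023, OICR, UNC0379 or Valproate, and the group labelled NC, which named no compound, served as the reference. Every group had 2 libraries (22 in all), the labels gave neither dose nor exposure time, and all groups shared the same line with no genetic change named. The labels do not say that the libraries of a group came from separate cultures, so p-values measure only the spread between these libraries, which may be technical.

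As background on the compounds, 3 act through histone acetylation: Valproate on deacetylases, CPTH2 and Garcinol on acetyltransferases. Bromosporine occupies the bromodomains that read this mark. Histone methylation is the target of Chaetocin (lysine methyltransferases), of UNC0379 (SETD8) and of MS023 (arginine methyltransferases of type I). DZNep blocks the breakdown of S-adenosylhomocysteine, which then inhibits methyltransferases broadly, and IOX1 inhibits oxygenases that use 2-oxoglutarate, histone demethylases among them. The label OICR gives no full compound name.

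As background on the genes, DPPA3 (also called Stella) is a maternal factor that protects DNA methylation in the zygote and limits UHRF1. DPPA2 and DPPA4 act as a pair of chromatin-bound proteins and help to switch on Dux and the Zscan4 genes, which mark a state like the 2-cell embryo that stem cells enter rarely. DPPA5A is an RNA-binding protein with a KH domain, and KHDC3 (also called FILIA) is a KH-domain protein of the subcortical maternal complex of the oocyte, together with NLRP5, OOEP and TLE6. NLRP4F belongs to the oocyte-rich NLRP proteins. ZFP57 is a zinc finger protein that binds methylated imprinting control regions and recruits TRIM28, TCL1 is a co-activator of the kinase AKT, and TRIM71 is an RNA-binding ubiquitin ligase and a known target of let-7 microRNAs.

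In the mm10 build (GENCODE M21) all 9 genes are protein-coding. Dppa4 (chr16:48283733-48294237) and Dppa2 (chr16:48303908-48319723) lie 9671 bases apart on the plus strand. Dppa3 lies at chr6:122626410-122630272 and Zfp57 at chr17:37001163-37010635, both on the plus strand. Khdc3 (chr9:73101836-73104438, plus strand), Dppa5a (chr9:78367052-78368177, minus strand) and Trim71 (chr9:114507133-114564369, minus strand) share chromosome 9. Tcl1 (chr12:105216750-105222793) and Nlrp4f (chr13:65177111-65205977) are on the minus strand.

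Promoter sequences from RefSeq (GRCm38.p6, the assembly of mm10) were matched for 5 of the 9 genes: Khdc3, Nlrp4f, Tcl1, Trim71 and Zfp57. Below are the stretches upstream of the start for Khdc3, which was called with the most compounds, for Zfp57, called with DZNep and OICR, and for Trim71, called with none. Each is written 5′ to 3′ on the strand of the gene, with CpG dinucleotides in capitals, and bases inside annotated exons were left out. The Khdc3 stretch lies upstream of the RefSeq start and inside the longer gene span of GENCODE.
Khdc3, chr9:73102205-73102397, plus strand: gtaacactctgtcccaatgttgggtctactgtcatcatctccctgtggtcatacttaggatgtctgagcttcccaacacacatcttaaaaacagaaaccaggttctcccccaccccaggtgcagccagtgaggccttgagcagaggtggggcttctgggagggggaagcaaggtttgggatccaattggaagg
Zfp57, first of its 3 listed starts, chr17:37000913-37001162, plus strand: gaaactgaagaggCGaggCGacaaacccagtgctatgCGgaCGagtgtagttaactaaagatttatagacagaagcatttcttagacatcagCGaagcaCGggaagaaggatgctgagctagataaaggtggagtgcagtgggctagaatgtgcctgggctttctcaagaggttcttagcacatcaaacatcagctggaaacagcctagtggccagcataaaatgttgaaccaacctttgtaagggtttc
Trim71, chr9:114564370-114564619, minus strand: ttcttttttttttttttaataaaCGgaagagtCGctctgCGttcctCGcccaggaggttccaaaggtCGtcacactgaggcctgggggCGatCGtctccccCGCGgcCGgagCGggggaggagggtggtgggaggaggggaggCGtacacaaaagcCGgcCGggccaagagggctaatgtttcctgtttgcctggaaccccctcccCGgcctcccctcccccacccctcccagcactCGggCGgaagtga

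In the full windows of 250 bases, Khdc3 had 0 CpG, Nlrp4f 2, the first Zfp57 window 6, Tcl1 7 and Trim71 17, against a median of 6 over 32851 windows. At most this many CpG were found in 7.87% of all windows for Khdc3 and in 78.3% for Trim71. The letters CCAAT, on either strand, were in the Khdc3 window, in the second Zfp57 window and in 33.8% of all windows. GGGCGG was in those of Tcl1 and Trim71 and in 32.7% of all windows, and TATAAA in the first Zfp57 window and in 12.4%.

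The values are normalized read counts that the authors brought to the same distribution in every library, with a median of 409 over all genes in each. The depth of each library is not known here. All 9 genes passed the filter on low values (at least 10 in at least 2 libraries), as did 17275 genes in all. Per kilobase of the longest transcript, Dppa5a was highest in NC (65561), followed by Zfp57 (3297), Tcl1 (2098), Dppa4 (1288), Khdc3 (1046), Dppa2 (905), Trim71 (548), Dppa3 (212) and Nlrp4f (131). All 12 embryonic stem cell markers were detected, with a summed value of 180163 to 289270 per library. The 9 fibroblast markers, which feeder cells would carry, summed to between 33 and 1880. They were uneven: Dcn was at 0 in every library, while Postn read 474 and 559 and Col3a1 4 and 743 in NC. Lum, at 0 in NC, reached 346 in another library.

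Differences are given as log2(value + 1) of a compound minus NC from limma, fitted across all 17275 genes, and calls needed both an adjusted p under 0.05 and a difference of more than 2-fold. Of the 90 pairs of gene and compound 6 were called. Dppa3 rose with Valproate, Khdc3 rose with Valproate and DZNep and fell with Bromosporine, and Zfp57 rose with DZNep and OICR. Dppa2, Dppa4, Dppa5a, Tcl1, Trim71 and Nlrp4f were called with no compound. In the test for any difference among the 11 groups, Khdc3 (adjusted p = 0.000108), Zfp57 (adjusted p = 0.000253) and Dppa3 (adjusted p = 0.0034) passed, 3 of 9, while 29.7% of all genes did.

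**Figure D1:**
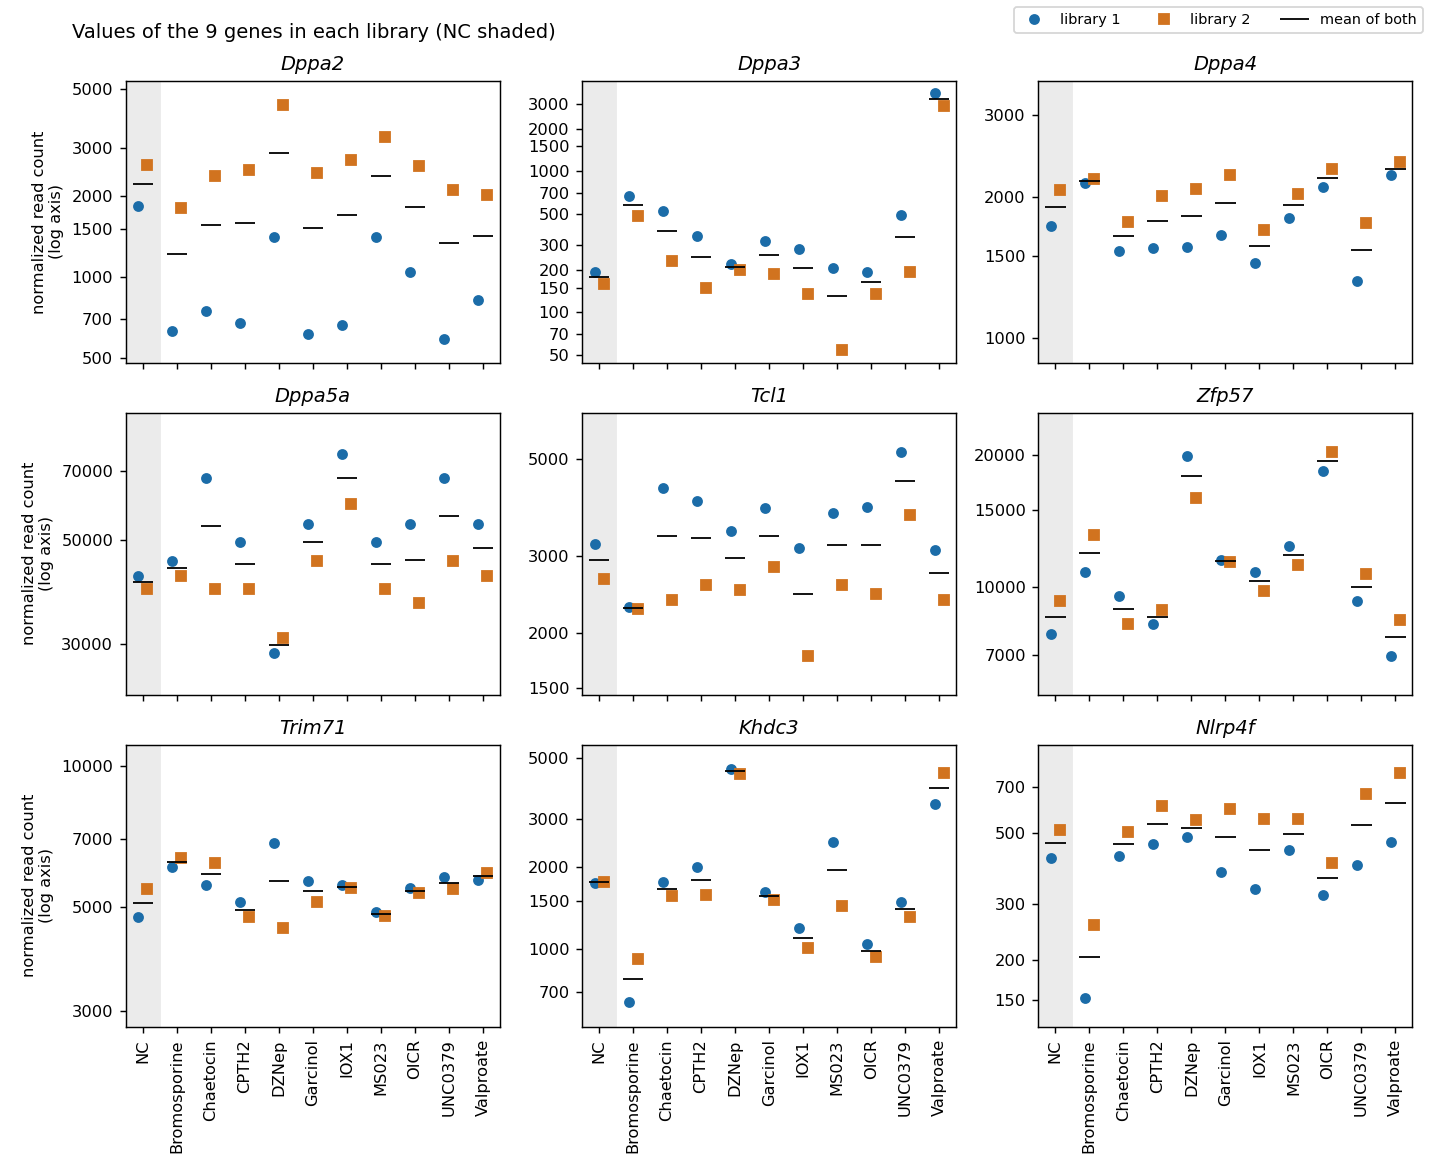
Normalized read count (log axis, a scale of its own in each panel) of the 9 genes in the 2 libraries of each of the 11 groups, with the mean of both as a line and NC shaded. Dppa3 stands at 3544 and 2894 with Valproate, Khdc3 is highest with DZNep and Valproate, and library 2 of Dppa2 is above library 1 in all 11 groups.

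Dppa3 was the gene with the widest range. NC held 194 and 160, and the Valproate libraries held 3544 and 2894. Both Valproate libraries lay far above every other library, the next highest being a Bromosporine library at 669. The difference between Valproate and NC was 4.18 on the log2 scale (SE 0.64, 95% interval 2.80 to 5.56, 18.1-fold, limma adjusted p = 0.00132, n = 2 against 2), and 2.73% of all genes were called higher with Valproate. The call held under every alternative run, with a log2 change between 3.80 and 4.32.

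With Bromosporine, Dppa3 read 669 and 479, both above NC, a difference of 1.68 (SE 0.64) that did not pass the test (adjusted p = 0.159). That fit has no term for the library number. A limma fit with such a term called it (SE 0.35, adjusted p = 0.0071), and the other 10 of 11 alternatives did not. Chaetocin held 519 and 231 and UNC0379 493 and 192, and in both of these groups the libraries differed from each other by over 2-fold. MS023 had the lowest library of all (206 and 54). In the order of group means, Valproate stood above Bromosporine and Bromosporine above Chaetocin by more than the residual SD of 0.70 on the log2 scale, and no other neighbours were that far apart.

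In bulk RNA, more cells with a transcript and more RNA per cell cannot be told apart. Beside the Dppa3 value, the 7 primordial germ cell markers, a list without Dppa3, summed to 34652 to 40422 with Valproate. With this compound 0 of the 7 were called. The sum was 23098 to 30715 in NC and 26650 to 34610 with Bromosporine. Kit (17650 and 13845) and Dazl (6257 and 3591) made up most of it in NC. The fibroblast markers summed to 1424 to 1557 with Valproate and 532 to 1369 with NC, with Thy1 and Lum called higher. The part of these in the result was not tested.

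Khdc3 was called with 3 compounds, in both directions. Its NC libraries were at 1753 and 1763. With DZNep it stood at 4557 and 4380, a log2 change of 1.35 (SE 0.23, 95% interval 0.85 to 1.84, 2.54-fold, adjusted p = 0.000971). DZNep was the compound with the most calls, 5.27% of all genes higher and 6.14% lower.

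With Valproate Khdc3 was at 3391 and 4404, 1.14 above NC on the log2 scale (SE 0.23, adjusted p = 0.00675). Both libraries lay above both NC libraries. Without the second Valproate library the change was 0.95 and the call was lost (adjusted p = 0.0554, over all alternatives 0.000166 to 0.146).

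With Bromosporine, Khdc3 was at 640 and 923, the lowest group. It fell by 1.19 on the log2 scale (SE 0.23, adjusted p = 0.00893), and 2.77% of all genes were called lower and 0.573% higher with this compound. Without the first Bromosporine library the change was -0.93 (adjusted p = 0.104), and without the first NC library -1.20 (adjusted p = 0.0696), so the call rested on each of them (over all alternatives 0.00046 to 0.180).

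OICR (1046 and 934) and IOX1 (1194 and 1011) also held Khdc3 below both NC libraries. The differences of -0.83 (adjusted p = 0.144) and -0.68 (adjusted p = 0.242) did not pass. Garcinol (1622 and 1514, -0.17, limma adjusted p = 0.977) and UNC0379 (1495 and 1318, -0.32, adjusted p = 0.906) were below both NC libraries as well. By group mean the order ran from DZNep and Valproate, which were within the residual SD of 0.24 of each other, down to OICR and then Bromosporine. In GENCODE, 45.7% of the 31-base stretches of Khdc3 also lie in Gm20509, a gene overlapping it on the same strand. Reads of the pair may have been split, and Gm20509 was not measured here.

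Nlrp4f, from the NLRP family, was the gene nearest to a call without one. NC held 418 and 513, and Bromosporine 152 and 259, the lowest values among all libraries. The difference of -1.22 (SE 0.35, 95% interval -1.98 to -0.46) gave an adjusted p of 0.0649. Over the alternatives run the change lay between -1.60 and -0.84 and the adjusted p between 0.000382 and 0.393, passing in 3 of 11.

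Among the other compounds Nlrp4f ranged from 321 in an OICR library to 772 in a Valproate library. The changes lay between -0.36 with OICR and 0.38 with Valproate, and each 95% interval held 0. Only OICR and Bromosporine were neighbours in the order of means with a gap beyond the residual SD (0.38). Of its 31-base stretches 18.4% occur in other genes (16, of which 3 were measured here), Nlrp4g most of all.

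Zfp57, the imprinting factor, was next to Dppa5a in NC level per kilobase. Its NC libraries read 7821 and 9304. With OICR it stood at 18362 and 20309, a difference of 1.18 (SE 0.15, 95% interval 0.86 to 1.49, 2.26-fold, adjusted p = 0.00397), while 0.127% of all genes were called higher and 0.26% lower with OICR. Zfp57 was thus 1 of the 22 genes called higher there. Without the second OICR library the change was 1.11 and the call was lost (adjusted p = 0.0546, over all alternatives 0.000707 to 0.284).

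With DZNep Zfp57 stood at 19854 and 15958, 1.06 above NC (SE 0.15, 2.09-fold, adjusted p = 0.000238). Its size was near the fold threshold. It was 0.90 without the first DZNep library and 0.94 without the first NC library, under the fold threshold both times, with adjusted p at 0.00329 and 0.00545 (over all alternatives 9.99e-05 to 0.0941).

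In 4 further groups both libraries held Zfp57 above both NC libraries without a call. Bromosporine read 10812 and 13125 (0.48, adjusted p = 0.078), MS023 12389 and 11228 (0.47, adjusted p = 0.134) and Garcinol 11541 and 11388 (0.43, adjusted p = 0.967). IOX1, at 10812 and 9813, was nearest to NC of the 4 (0.27, adjusted p = 0.479). Valproate was lowest, at 6970 and 8400. OICR and DZNep did not differ by more than the residual SD (0.15), and the gap from DZNep to Bromosporine did.

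**Figure D2:**
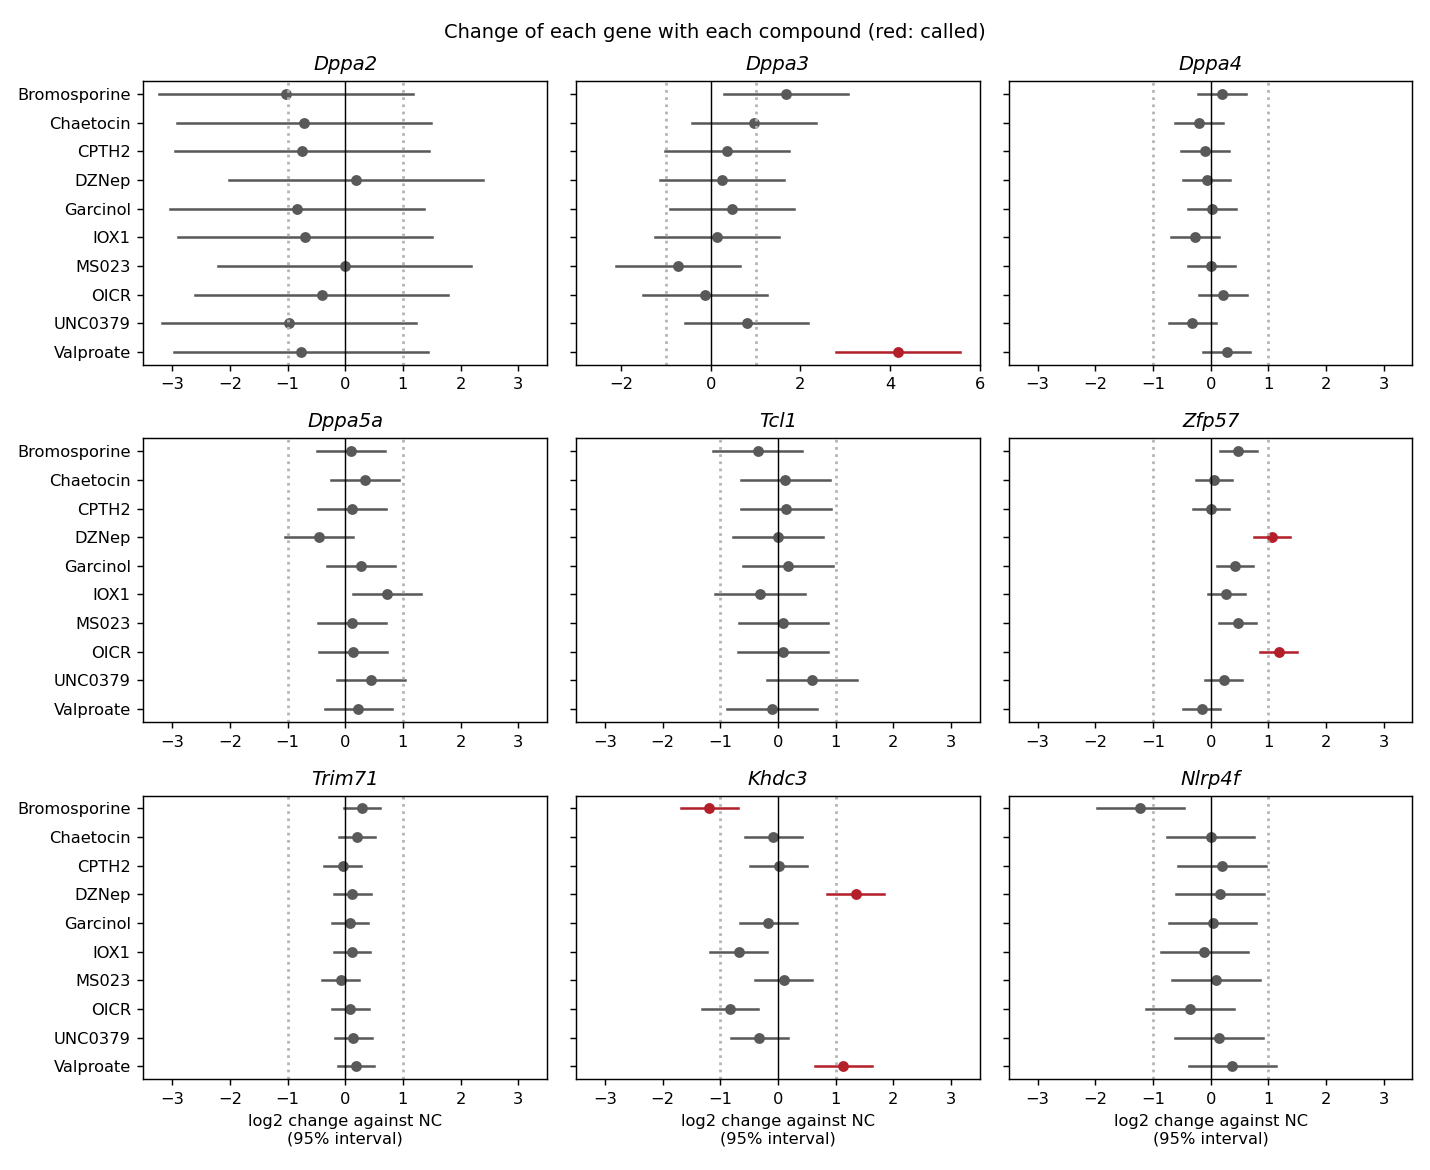
Log2 change against NC of each gene with each of the 10 compounds (points) and 95% intervals from limma (lines), with called pairs in red and dotted lines at a 2-fold change. The 6 called pairs are Dppa3 with Valproate, Khdc3 with Bromosporine, DZNep and Valproate, and Zfp57 with DZNep and OICR, and the intervals of Dppa2 are the widest.

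Dppa2 and Dppa4, neighbours on chromosome 16 whose proteins work as a pair, behaved unlike in their spread. Dppa4 was at 1737 and 2074 in NC and between 1321 (UNC0379) and 2374 (Valproate) in all libraries. Its changes lay between -0.32 and 0.28, with 95% intervals between -0.73 and 0.69 for all 10 compounds, so changes of 2-fold lay outside every interval. Dppa2 read 1827 and 2604 in NC, and between 588 and 4361 over all libraries.

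The 2 libraries of each group differed so much in Dppa2 that its residual SD was 1.13 on the log2 scale against 0.20 for Dppa4. Its changes ran from -1.03 with Bromosporine to 0.18 with DZNep, with intervals from -3.23 to 2.38 and no adjusted p under 0.667. In this fit, which has no term for the library number, the interval held a 2-fold change in either direction for every compound. With such a term the SE fell from 1.02 to 0.28. Dppa2 was then called with Bromosporine (limma adjusted p = 0.0244, where 6.88% of all genes were called) and with no other compound. Other genes share 33.8% of the 31-base stretches of Dppa2 (218 genes, 137 of them measured here). They share 44.3% of those of Dppa4 and 31.8% of those of Dppa3, so reads of these may have been split as well. For Dppa4 and Dppa3, none of the sharing genes was measured here. Over the 11 group means the Pearson correlation of Dppa2 and Dppa4 was 0.07, given as a description.

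Dppa5a was the most abundant, at 41903 and 39262 in NC, and ranked between 37 and 177 among all genes in each library. At this height quantile normalization gives few distinct values, and 39262 occurs in 4 libraries. IOX1 held the highest values (76099 and 59503, 0.73 above NC, adjusted p = 0.293) and DZNep the lowest (28606 and 30833, -0.45, adjusted p = 0.254). Both groups stood apart from the NC libraries without passing the test. Other genes share 57.2% of the 31-base stretches of Dppa5a, Pigp and the Dppa5b and Dppa5c copies among them, so its reads may have been split. Of these 11 genes 1 was measured here.

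Tcl1 was at 3200 and 2665 in NC. UNC0379 had the highest values, 5200 and 3729, a difference of 0.59 (95% interval -0.19 to 1.37, adjusted p = 0.881). Bromosporine was lowest with 2293 and 2276 (-0.35, adjusted p = 0.677). UNC0379 was above Garcinol, the next group, by slightly more than the residual SD (0.39), and no other neighbours were.

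Trim71 had the smallest range of group means, 1.29-fold from the lowest to the highest. It read 4771 and 5464 in NC and between 4508 and 6858 in all libraries, both ends being DZNep libraries. Its changes ran from -0.08 to 0.29, and the 95% intervals from -0.39 to 0.61 held no 2-fold change.

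Counted by compound, Bromosporine placed 8 of the 9 genes outside the NC range in both libraries. Dppa3, Dppa4, Zfp57 and Trim71 were above it and Dppa2, Tcl1, Khdc3 and Nlrp4f below, while 49.4% of all genes did not overlap. Among the other compounds with a call, DZNep (58.9% of all genes), OICR (40.1%) and Valproate (50.6%) placed 4 of 9 each outside it. At an unadjusted p under 0.05 limma gave 4 of the 9 genes for Bromosporine (19% of all genes) and 2 each for DZNep (35.4%), OICR (10.7%) and Valproate (24.1%).

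The other 6 compounds had none of the 9 genes called. Over all genes, limma called 0.0174% with Chaetocin, 0.00579% with CPTH2 and with Garcinol, 0.116% with IOX1, 0.973% with MS023 and 0% with UNC0379. At an unadjusted p under 0.05 there were 2 of the 9 genes with IOX1 (Khdc3 and Dppa5a), where 12.4% of all genes were, 1 with MS023 and with Garcinol (Zfp57), against 15% and 3.62%, and 0 with Chaetocin (4.72%), CPTH2 (0.944%) and UNC0379 (6.08%). Both libraries lay outside the NC range for 5 of 9 genes with IOX1 (43.7% of all genes), 3 with Garcinol (33.7%) and UNC0379 (34.8%), 2 with Chaetocin (33.9%), 1 with MS023 (45.4%) and 0 with CPTH2 (16.2%).

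The sample titles number the libraries of each group 1 and 2, and the labels do not say what the number marks. The comparison of number 2 with number 1 across all 11 groups was made with the group in the limma fit. For Dppa2 the first libraries read 588 to 1827 (median 745) and the second libraries 1808 to 4361 (median 2495). The first NC library, at 1827, was the highest of the first libraries, the others ending at 1411. Number 2 was higher in 11 of 11 groups, by 1.53 on the log2 scale (SE 0.12, 2.90-fold, adjusted p = 6.29e-06).

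Dppa2 was the only one of the 9 to pass both the p and the fold threshold, as did 4.04% of all genes. By the adjusted p alone 6 of 9 differed, against 52.6% of all genes. Dppa3 (-0.84), Tcl1 (-0.50) and Dppa5a (-0.33) were lower in number 2, in 11, 11 and 10 of the 11 groups. Nlrp4f (0.49) and Dppa4 (0.25) were higher in 11 of 11. Zfp57 (0.04), Trim71 (-0.05) and Khdc3 (-0.10) did not pass.

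**Figure D3:**
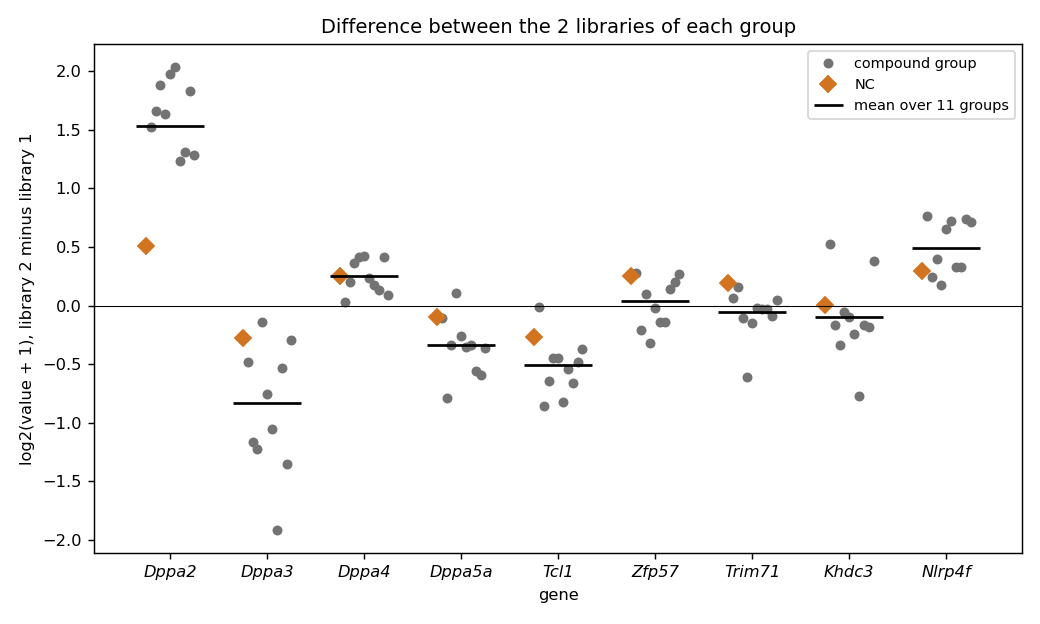
Log2(value + 1) of library 2 minus library 1 in each of the 11 groups for each gene, with NC as a diamond and the mean over groups as a line. All 11 points of Dppa2 lie above 0 and all 11 of Dppa3 and of Tcl1 below it, while those of Zfp57, Trim71 and Khdc3 lie on both sides.

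Relatives of the 9 genes came from a list of 22, of which 9 were tested. Nlrp4c, of the family of Nlrp4f, was at 64 and 78 in NC, and rose to 949 and 753 with Valproate (log2 change 3.56, adjusted p = 0.000427) and to 208 and 175 with DZNep (1.42, adjusted p = 0.0402). Nlrp4a fell with DZNep (343 and 388 to 118 and 168, -1.37, adjusted p = 0.00612). Members of the Nlrp4 family thus moved in opposite directions with the same compound, and Nlrp4f itself read 487 and 551 with DZNep.

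The partner of KHDC3 in the subcortical maternal complex, Ooep, fell with DZNep from 2590 and 2490 to 1111 and 1399 (-1.03, adjusted p = 0.00295), while Khdc3 rose. Trim2, a relative of Trim71, fell with Bromosporine (1811 and 1107 to 414 and 499, -1.64, adjusted p = 0.0461) and with DZNep (679 and 411, -1.42, adjusted p = 0.0308). In all, 1 relative rose and 3 fell with DZNep (5.27% and 6.14% of all genes), 1 rose with Valproate (2.73%) and 1 fell with Bromosporine (2.77%), with 0 for the other 7 compounds.

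Of 30 oocyte and maternal effect genes 13 were tested. Ooep with DZNep and Zbed3 with Valproate (441 and 614 to 152 and 217, -1.51, adjusted p = 0.000415) fell, and none rose with any compound. The medians of the list lay between -0.31 with Valproate and 0.01 with OICR, where those of all genes were -0.02 and 0.01.

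Genes of the 2-cell program downstream of DPPA2, DPPA4 and DUX were at low values, 363 to 492 in NC summed over the 19 measured genes, of which 13 were tested. With Bromosporine the sum was 10 to 18. Of the 13, 5 were called lower, where 2.77% of all genes were. Sequence shared among the genes of this list was not counted, so the calls may not be separate observations. Among the 5, Zscan4c (64 and 66 in NC), Usp17la (59 and 48) and Zscan4d (40 and 47) were listed at 0 in both Bromosporine libraries. The other two, Gm4340 and Sp110, are named after their values were seen. With Valproate the sum was 756 to 1785, the list median was 1.67 and 0 of 13 were called (2.73% of all genes higher and 2.55% lower). With OICR Zscan4d fell, being listed at 0 in both libraries, where 0.26% of all genes were called lower, and the sum was 72 to 178. With DZNep Sp110 rose from 25 and 24 to 110 and 89, where 5.27% of all genes were called higher.

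The imprinted genes at control regions of the kind that ZFP57 binds (22 of 25 tested) changed with DZNep in both directions, 3 rising and 3 falling, where 5.27% of all genes rose and 6.14% fell. Cdkn1c, a growth inhibitor, rose from 56 and 82 to 354 and 456 (2.55, adjusted p = 7.16e-05), and Igf2, a growth factor, from 2 and 4 to 39 and 15 (2.71, adjusted p = 0.0388). Rian, a noncoding RNA, fell from 26697 and 15357 to 4680 and 2540 (-2.55, adjusted p = 0.0082). The others, Peg10 (higher), Plagl1 and Impact (lower), are named after their values were seen. With Valproate, Peg10 rose and Mirg and Grb10 fell, and with OICR, where Zfp57 was highest, 0 of 22 were called, with 0.127% of all genes called higher and 0.26% lower, and the list median was -0.10.

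Partners in complexes or pathways (UHRF1, DNA methyltransferases, TRIM28, AKT kinases, LIN28 and others) had 20 of 23 tested, and Ooep with DZNep was the only call in 10 compounds. Of transcripts known to be repressed by TRIM71, 9 of 10 were tested, and Rbl1 with DZNep was the only one called (1241 and 1156 to 635 and 549, -1.02, adjusted p = 0.000215). Trim71 in those libraries was 6858 and 4508.

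The markers of other cell types moved with the same compounds. Utf1, a stem cell marker, was called higher with Bromosporine, DZNep, OICR and Valproate, and Zfp42 with DZNep. With DZNep 3 of 7 trophoblast markers (Eomes, Gata3 and Krt8) and 2 of 6 tested fibroblast markers (Col1a1 and Thy1) were called higher. Of 6 primitive endoderm markers Dab2 and Pdgfra rose and Gata4 fell with DZNep, where 5.27% of all genes rose and 6.14% fell. With Valproate Pdgfra and the fibroblast markers Thy1 (12 and 11 to 358 and 303) and Lum (0 and 0 to 197 and 331) rose. Otx2 fell with Valproate, where 2.73% of all genes rose and 2.55% fell. With Bromosporine Eomes rose and Hand1 and Col1a1 fell, where 0.573% of all genes rose and 2.77% fell. In summed value the fibroblast markers were at 1612 to 1880 with DZNep and 532 to 1369 with NC, and at 614 to 683 with Bromosporine. The trophoblast markers summed to 5664 to 6038 with Valproate, 4366 to 5629 with Bromosporine and 3680 to 4394 with DZNep. With NC they summed to 3294 to 3747, mostly Tfap2c (3379 and 2712), which is also a listed primordial germ cell marker. The part of these markers of other cell types in the changes of Dppa3, Khdc3 and Zfp57 was not tested.

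By the Pearson correlation of group means over the 11 groups, among 16754 genes, the genes with patterns most like each of the 9 are given as a description. For Khdc3 they were Slc1a1 (r = 0.974) and Slc5a4b (0.962). Slc1a1 had group means of 634.5 in NC, 2074 with DZNep, 1653 with Valproate and 312.5 with Bromosporine. For Nlrp4f they were Cdcp1 (0.966) and Shc3 (0.965), and for Dppa5a Gm7536 (0.963) and Nadk2 (0.946).

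Zfp57 was most like Trip13 (0.948) and Zfp119a (0.941), Dppa3 most like Vsig10l (0.945) and Cdc73 (0.943), and Tcl1 most like Majin (0.945) and Ciita (0.931). For Trim71 these were Tmf1 (0.906) and Efna4 (0.900), for Dppa4 Plpp2 (0.905) and Fam46b (0.900), and for Dppa2 Chka (0.901) and Wdtc1 (0.894). Cdc73 shows how small the shared range can be, with 5856.5 in NC and 7399 with Valproate, where Dppa3 differed 18.1-fold. Among the 9 genes the highest correlation was that of Khdc3 and Nlrp4f (0.74), which was 0.85 over the first libraries and 0.57 over the second.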

How the data were processed

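RNA was measured in 22 libraries of E14 cells, 2 for each of 10 compounds and NC, and groups were taken from the treatment labels and titles. The deposited values are scores, namely normalized read counts that the authors rounded to whole numbers. Per the submitters' processing notes bcl2fastq, Bowtie2 2.2.5, RSEM and the build mm10 were used. The study's methods name EDASeq full normalization, and which counting route gave the table is not given in the sources used here. This step removes differences in depth and any change shared by most genes, and leaves ties among high values. A deposited table of the authors' means was not used. There were 0 unmatched columns.

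After adding 1 and taking log2, genes reaching 10 in at least 2 libraries entered limma 3.58.1 (R 4.3.3) with 11 group means (lmFit, eBayes with trend, 11 residual degrees of freedom). Its two-sided p-values were corrected per contrast (Benjamini-Hochberg). A call needed an adjusted p under 0.05 and an absolute log2 change over 1. Simulated data with known changes were used to test the fit. Alternatives were a pseudocount of 10, no filter, fitting each compound with NC alone, a block for the replicate number, median-of-ratios scaling, the mean of the other groups as reference, adjustment over all 10 contrasts and leaving out each library. The 9 genes and the lists were chosen with earlier results of these data known, and the lists were written from general knowledge. From each list the called genes were named, at most the 3 with the largest change for a compound, and others only where said. For each of the 9 genes the 2 genes of highest correlation were named, among those with a mean of at least 10. Neighbours in an order of groups were said to differ where their gap exceeded the residual SD. Positions and shared 31-base stretches came from GENCODE M21, and promoters from RefSeq. Python 3.11.15 with pandas 2.3.3, numpy 2.4.6 and matplotlib 3.10.9 was used for tables and plots.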

Additional observations from a re-analysis of the deposited data

How the results depend on the processing

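Of 990 values of the 90 pairs under alternatives, 972 were called or uncalled as in the main fit, 13 lost a call and 5 gained a call. Only the 6 pairs called in the main fit could lose a call or count as reversed, and 0 reversed. Each of these 6 except Dppa3 with Valproate lost its call under some alternative. Uncalled pairs changed sign under some alternatives, as Dppa2 with MS023 did in 4 of 11. Counts of the 9 genes called were 1 with Bromosporine, 2 with DZNep, 1 with OICR and 2 with Valproate. In fits of only the compound and NC libraries, which have fewer libraries to estimate the spread, these became 0, 0, 0 and 1, and the calls over all genes 0.741%, 0.562%, 0.284% and 0.434%. With the mean of the other groups as reference they became 2 with Bromosporine (adding Nlrp4f), 1 with DZNep and 0 with OICR. The calls over all genes were then 5.15%, 12.3% and 0.191%. Zfp57 fell under the fold threshold with DZNep and OICR (0.77 and 0.89). Median-of-ratios scaling gave 2 with Bromosporine, where 3.52% of all genes were called. Leaving out a library took some log2 changes under the fold threshold. Without the first DZNep library Zfp57 stood at 0.90 with DZNep. Khdc3 stood at 0.95 without the second Valproate library and at -0.93 without the first Bromosporine library. A lone library was assumed to vary like the other groups.

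With a replicate block 4 genes were called with Bromosporine (Dppa2, Dppa3 and Nlrp4f in addition), 9 of the 90 pairs in all. In the test for any difference among the groups, 8 of 9 genes, all but Trim71, then passed instead of 3. The share of all genes passing that test with the block was not counted, so the 8 cannot be set against it. Over all genes the calls became 1189 with Bromosporine (6.88%), 2606 with DZNep (15.1%), 274 with OICR (1.59%) and 1487 with Valproate (8.61%). The libraries share only a number. The deviations of same-numbered libraries correlated between groups at 0.0535 to 0.298 (median 0.196), over 0.1 in 51 of 55 pairs of groups. The study's methods name a sequencing depth for its RNA-seq without describing the compound libraries. The depth of each library is not known here, so no detection limit can be given for the low Dppa3 and 2-cell values.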

Other observations

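The genes within 100 kb of each of the 9 were looked at after the data had been seen, as a description. Gdf3, a TGF-beta family ligand of stem cells 16323 bases from Dppa3, fell with Valproate from 2751 and 3675 to 1391 and 1779 (log2 change -1.01, limma adjusted p = 0.0125), where Dppa3 rose. It was the only one of the 7 tested neighbours of Dppa3 to be called with Valproate, where 2.73% of all genes were called higher and 2.55% lower. Nanog, 77217 bases away, read 49312 and 75957 against 44793 and 59405 in NC. With DZNep 2 of the 7 were called, Mfap5 higher and Slc2a3 lower, while Dppa3 was not. Near Khdc3, Rab27a, a small GTPase of vesicle transport 4207 bases away, rose with DZNep from 207 in both NC libraries to 522 and 412 (1.16, adjusted p = 0.0174). Gm38192, 75697 bases away, fell. These were the 2 called with DZNep of 7 tested neighbours of Khdc3. Over all genes 5.27% were called higher with DZNep and 6.14% lower.

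Near Zfp57, 2410137M14Rik, 19926 bases away, rose with DZNep from 150 and 168 to 386 and 338 (1.18, adjusted p = 0.000326). It was 1 of 10 tested neighbours of Zfp57, and no other was called with DZNep. Gabbr1 rose with Bromosporine (0.573% of all genes higher) and H2-M6-ps fell with Valproate (2.55% lower), where Zfp57 was not called. Ooep lies 7932 bases from Dppa5a and fell with DZNep, alone among 5 tested neighbours of Dppa5a in being called. Around Trim71, which was called with no compound, 2 of 3 neighbours were called with DZNep, where 5.27% of all genes were called higher and 6.14% lower. One of them, Tmppe (chr9:114401105-114407276), lies inside the span of the other, Glb1 (chr9:114401076-114474898), on the same strand. They are therefore not separate loci, and whether reads were split between them was not tested. Glb1, a lysosomal galactosidase, fell from 4605 and 3259 to 1082 and 923 (-1.95, adjusted p = 0.000141), and Tmppe rose from 362 and 354 to 2776 and 1590 (2.55, adjusted p = 4.1e-05).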
